A study of Carthamus tinctorius with 15 samples.

Results

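Leaf and flower were compared by gene expression in safflower, Carthamus tinctorius, a thistle relative grown for its oil and its coloured florets. RNA-seq values of 3 leaf and 3 flower libraries were used, and 3 stem and 3 root libraries showed where the same genes stood in other organs. The values are FPKM, which scale a gene's reads to its length and to the reads of its library. A gene entered the comparison when it reached 1 FPKM in at least 3 of the 6 leaf and flower libraries, which 19467 of the 33242 rows of the table did. The rows used carry no gene names, so a gene is called here by the number of its row of values, with the length recovered from them. Functions were therefore not assigned to any gene, and the organ labels were not checked against marker genes. The labels give the organ and a replicate number. The sources used here do not give the cultivar, the age of the plants, the stage of the flowers or the flower parts taken. The labels do not say that libraries of an organ came from separate plants, so p-values measure the spread between libraries, which may be technical.

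A leaf is the main site of photosynthesis, and leaf RNA of flowering plants is commonly dominated by transcripts of the photosynthetic machinery. The safflower flower head bundles many small florets, whose petals hold the yellow and red pigments for which the plant is harvested, together with stamens that bear pollen and with young ovaries. Such heads mix organs that make little chlorophyll with green bracts. The samples were bulk tissue, so fewer cells of a type and less RNA per cell cannot be told apart.

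Read totals recovered from the FPKM values ran from 29363997 to 31500664 over the 6 libraries. The reads of the genes add up to nearly all of these totals, so the totals do not give the sequencing depth. Across the 19467 genes, which are not independent replicates, the Spearman correlation between leaf libraries was 0.992, and between flower replicates 2 and 3 it was 0.991. Flower replicate 1 stood somewhat apart from the other flower libraries, with a correlation of 0.982 to each. On the log2(FPKM + 1) scale it lay at least 1 away from the mean of the other two in 482 genes (2.48%), above it in 398 and below it in 84. The same count was 146 for flower replicate 2, 113 for flower replicate 3 and 56 to 64 for the leaf libraries. Leaf and flower correlated at 0.478 to 0.482, less than leaf with stem (0.837 to 0.84) or leaf with root (0.642 to 0.649). Flower was also low with stem (0.525 to 0.53) and with root (0.501 to 0.512). The genes were chosen by their leaf and flower values alone, so this choice may in part set the order of the organ pairs.

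Most genes differed between leaf and flower, and, with FPKM as deposited, most of those that differed were higher in leaf. By limma, 11446 of the 19467 genes (58.8%) were called different, which took an adjusted p below 0.05 together with a log2(FPKM + 1) difference of 1 or more. Over all 20769 genes tested in the table, the share was 55.7%. Expression was higher in leaf for 7618 genes (39.1%, against 37.1% of all genes tested) and higher in flower for 3828 (19.7%, against 18.6%). Differences of at least 2 were called for 5845 genes (30%, against 28.1% of all genes tested), 3891 of them higher in leaf (20% against 18.7%) and 1954 higher in flower (10% against 9.41%). Differences of at least 5 were called for 705 genes (3.62% against 3.39%). The median gene was 0.52 higher in leaf on the log2(FPKM + 1) scale, with quartiles of -0.637 and 1.69. The standard error had a median of 0.108 and ran from 0.0518 at the 5th to 0.26 at the 95th percentile. It pools the spread of all 12 libraries, stem and root included. In 11429 of the called genes the 3 leaf and the 3 flower libraries did not overlap, and in 17 they did. Calls were chosen for a difference of 1 or more, so this separation is largely a result of the choice. The same count over all genes is not given here, so nothing is read from it.

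**Figure D1:**
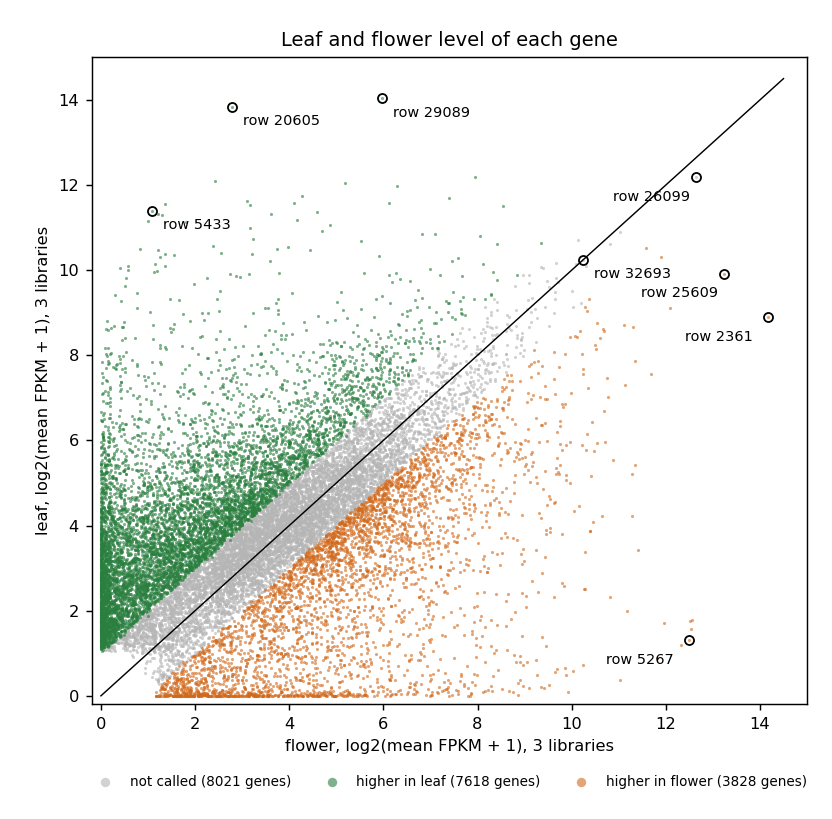
Each point is 1 of 19467 genes, with its flower level on the horizontal and its leaf level on the vertical axis, both as log2(mean FPKM + 1) over 3 libraries, and the line marks equal levels. Green points (7618) were higher in leaf and orange points (3828) higher in flower, and circled genes are among those described in the text.

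The way a gene met the expression minimum set part of these counts. All 6 libraries reached 1 FPKM for 14139 genes, of which 4149 (29.3%) were higher in leaf and 2631 (18.6%) higher in flower. Only the leaf libraries reached it for 2845 genes and only the flower libraries for 1015. Such genes passed through the organ in which they were high, which set the direction of any call. Nothing is therefore read from their calls (2675 and 961, with 170 and 54 not called). The remaining 1468 genes were mixed. At the edge of the minimum, the third highest value was 1.00147 FPKM for row 11282 and 1.001627 for row 31818, just inside, and 0.999854 for rows 22307 and 29053, just outside.

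The excess of genes higher in leaf depended on the scaling. Of the calls, 66.6% were higher in leaf with FPKM as deposited and 54.5% after median-ratio scaling, which takes the median gene as unchanged. That scaling divided the leaf values by 1.016 to 1.025 and the flower values by 0.7143 to 0.7561, and moved the median difference from 0.52 to 0.104. The number of called genes was then 11434, and 10059 genes were called in the same direction both ways. Among the 14139 genes at 1 FPKM in all 6 libraries, scaled calls were also grouped by mean FPKM. Calls for flower then outnumbered those for leaf in every group but that between 5 and 20 FPKM. There 1346 genes were higher in leaf and 1236 higher in flower, and between 20 and 100 FPKM 1081 and 1874. The majority of leaf calls thus did not hold in the 14139 genes. The data were not tested for which of the scalings holds.

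The genes leading in leaf had leaf means of 1454.1 FPKM or more and flower means of 5.91 FPKM or less. Row 20605 (842 bases) had the largest difference. Its values were 14518.3, 14380.5 and 14580.3 FPKM in the leaf libraries and 17.05, 0.364 and 0.3116 in the flower libraries. The 3 leaf libraries were alike, and flower replicate 1 was far above the other two. On the log2(FPKM + 1) scale leaf exceeded flower by 12.15 (SE 0.91, limma adjusted p = 8.51e-08), or by 13.4 once flower replicate 1 was left out. Row 5433 (244 bases) came next, at 2758.3, 2607.3 and 2669.9 FPKM in leaf. In flower it was at 3.367 FPKM in replicate 1, with no read in replicates 2 and 3. Its difference was 10.68 (SE 0.485, limma adjusted p = 7.3e-10).

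The other 6 leading genes of leaf were rows 3151 (1233 bases), 17449 (696 bases), 9665 (546 bases), 5026 (916 bases), 19556 (2119 bases) and 29496 (1931 bases), with differences from 10.5 down to 9.77. Row 19556 was the most abundant of these, at 4376.8, 4407.8 and 4412.8 FPKM in leaf and 7.072, 2.62 and 3.297 in flower. Row 3151 was at 2579.9, 2547.7 and 2545.6 FPKM in leaf and at 3.864, 0 and 0.133 in flower. Flower replicate 1 was the highest flower library in all 8 leading genes, and no flower library came near the leaf values. Stem stood between leaf and flower in all 8, from 43.74 FPKM for row 9665 to 960.6 for row 20605. The flower mean of row 20605 was 5.91 FPKM with flower replicate 1 and 0.3378 without it. The flower mean of row 3151 was 1.332 FPKM with flower replicate 1 and 0.0665 without it, and that of row 17449 was 1.58 with it and 0.5528 without it. For row 5026 these flower means were 1.463 and 0.5804 FPKM, for row 9665 they were 0.9931 and 0.4967, and for row 29496 they were 0.7695 and 0.3119.

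The genes leading in flower had recovered lengths of 246 to 903 bases, against a median of 1387 for all genes higher in flower. The genes leading in leaf, at 244 to 2119 bases, also lay mostly below the median of 1314.5 of all genes higher in leaf. Row 5267 (312 bases) was at 4530, 6454.5 and 6423.3 FPKM in flower. Its leaf values were 0.5181, 1.628 and 2.245, from 43 reads. Leaf minus flower was -11.25 (SE 0.374, limma adjusted p = 4.22e-11). Row 25608 (327 bases) had flower values of 3780.6, 5826.2 and 5743.7 FPKM and leaf values of 1.483, 1.068 and 1.363, a difference of -11.09 (SE 0.324). In both genes flower replicate 1 was the lowest flower library, and the flower libraries stood far above all leaf libraries.

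Row 28466 (903 bases) was the longest gene of this set, with 4806.8, 6490.8 and 6477.3 FPKM in flower and 1.862, 1.441 and 2.573 in leaf. Rows 5268 (444 bases), 5269 (453 bases), 5270 (288 bases), 5313 (560 bases) and 29570 (246 bases) made up the rest, with differences from -10.93 to -10.29. Relative to its mean, row 29570 varied least of the 8 among flower libraries, at 4106.9, 4032 and 3900.3 FPKM. Row 5270 varied most, at 4042.2, 6286.3 and 7294.4 FPKM. All 8 genes were at 2.421 FPKM or less by their leaf mean and at 2.194 FPKM or less by their stem and root means, so the other 3 organs were alike in holding little of them. Near-identical copies could share reads with any of these genes, and the sources used here do not say how such reads were counted.

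**Figure D2:**
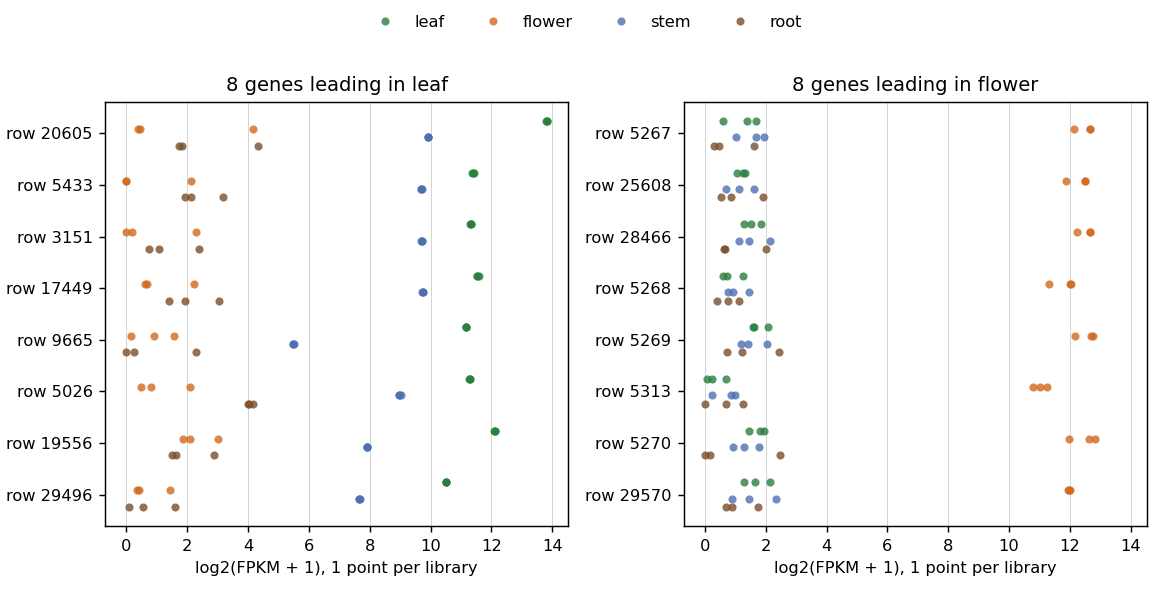
Values of the 8 genes leading in leaf and the 8 leading in flower, as log2(FPKM + 1), with 1 point per library in leaf, flower, stem and root. Stem lies between leaf and flower in all 8 genes on the left, and only flower is high in the 8 genes on the right.

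Flower replicate 1 held the highest of the 3 flower values in 46.2% of all 19467 genes and the lowest in 31.4%. Of the 401 genes higher in leaf by at least 5 (1.93% of all genes tested, 2.06% of those described here), it held the highest in 230 (57.4%). Of the 304 genes higher in flower by at least 5 (1.46% and 1.56%), it held the lowest in 184 (60.5%), the highest in 114 (37.5%), and its median difference from the mean of the other two was -0.163. In 30 of the 304 it lay at least 1 from that mean, above it in 28 and below it in 2. Flower replicates 2 and 3 held the lowest value in 68 and 52 of these 304 genes. The part of flower replicate 1 in any gene's value beyond these figures was not tested. Without it, 11511 genes were called, and 11200 of the 11446 calls were made again in the same direction.

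The most abundant genes of leaf and of flower were largely different genes. Of the 100 genes with the highest leaf mean, 12 were also among the 100 highest in flower. By limma 78 of the 100 leaf genes were higher in leaf and 3 higher in flower. Of the 100 flower genes, 89 were higher in flower and none was higher in leaf. The median of the 100 leaf genes was 1257.5 FPKM in leaf and 46.1 in flower, and that of the 100 flower genes 1271.4 in flower and 74.7 in leaf. These lists were chosen by their level in one organ, so a lower level in the other is in part a result of the choice.

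Row 29089 (1057 bases) was the highest gene of leaf, at 17063, 16597.8 and 16643.9 FPKM. In flower it was at 70.38, 56.83 and 58.34, which is 271.1 times lower by the means, and leaf minus flower was 8.07 (SE 0.424, limma adjusted p = 2.91e-09). This SE pools the spread of all 4 organs, and the root libraries were at 5.714, 6.901 and 29.92 FPKM. Row 4714 (808 bases) was also among the 4 highest of leaf, at 4629.4 ± 9.03 FPKM (SD, n = 3) against 245.6 ± 29.7 in flower, so that the flower level of this leaf gene was higher than that of the 8 leading ones. Row 20605 was the second highest of leaf.

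Row 2361 (828 bases) was the highest gene of flower, at 17115.2, 19153 and 19179.4 FPKM. It was not absent from leaf, at 463.3, 477.5 and 478, and flower was 39.1 times higher by the means (leaf minus flower -5.28, SE 0.0555, limma adjusted p = 9.3e-15). Row 25609 (836 bases) had flower values of 7978.2, 10542.8 and 10301 FPKM and leaf values of 974.8, 964.3 and 960.2, so that leaf held much of it too. Stem was at 1066.1 ± 21.1 FPKM (SD, n = 3) and root at 3.501 ± 3.84 (1.297 without root replicate 3). Row 26099 (158 bases) was among the 4 highest of both organs, at 4606.3, 4070.4 and 5232.8 FPKM in leaf and 6275, 6686.5 and 6253.6 in flower. Its libraries did not overlap, and the difference of -0.47 (95% interval -0.73 to -0.21, limma adjusted p = 0.00263) was below the minimum for a call.

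Called genes made up most of the expression of each organ. The 7618 genes higher in leaf held 59.4% ± 0.0134 (SD, n = 3) of all FPKM in leaf and 7.46% ± 0.354 in flower. The 3828 genes higher in flower held 59.8% ± 0.72 of FPKM in flower and 8.38% ± 0.0114 in leaf. Since the genes were chosen by this contrast, these shares describe its size and test nothing. Counted as reads, without division by length, the genes higher in leaf held 56.8% in leaf and 7.34% in flower, and those higher in flower 57.8% in flower and 9.31% in leaf. Thus, with FPKM as deposited, 3828 genes made up about as large a share of FPKM in flower as 7618 genes did in leaf. This contrast in gene numbers depended on the scaling, since median-ratio scaling gave 6231 genes higher in leaf and 5203 higher in flower. It also includes 2675 leaf calls and 961 flower calls that passed the minimum through 1 organ alone. The 41 genes higher in leaf by at least 8 held 10.3% to 10.4% of leaf FPKM. The 40 genes higher in flower by at least 8 held 6.52% of FPKM in flower replicate 1 and 8.12% and 8.25% in replicates 2 and 3.

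Some genes had reads in one organ and none in the other. Of the 19467 genes, 334 had no read in any flower library, and 72 of them were at 10 FPKM or more in leaf. No leaf library held a read of 192 genes, and 59 of them were at 10 FPKM or more. Of these, 79 of the 192 flower genes and 7 of the 334 leaf genes had no read in stem and root either. A count of 0 over the 3 libraries allows up to 3 reads, and that limit covers counting error only.

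Row 24869 (653 bases) had the most reads of the 3 such genes of leaf described here, at 90.86, 89.01 and 84.87 FPKM. It had 5407 reads in leaf, none in flower, 2 in stem and 1 in root, so leaf was at least 1734.2-fold higher than the 3 reads that flower allows. Row 2964 (69 bases) was at 97.46, 109 and 95.96 FPKM in leaf, but at 164.2 ± 6.45 in stem and 46.78 ± 3.18 in root (SD, n = 3), so flower was the organ that lacked it. Leaf held 61.04 ± 14.3 FPKM of row 29899 (45 bases), and root held 317.6 ± 9.02. Both rest on few reads, 653 and 258 in leaf, and on lengths that are uncertain.

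Among genes of flower with no leaf read, the libraries of row 16491 (312 bases) were at 358.7, 165.3 and 156.2 FPKM and row 6438 (120 bases) at 396.5, 117.8 and 148.1. In both, flower replicate 1 was above the other two, and the flower means of 226.7 and 220.8 FPKM fell to 160.7 and 133 without it. Row 26960 (466 bases) went the other way, at 109.7, 200.5 and 194.1 FPKM, and its flower level was at least 2450.1-fold higher than the 3 reads that leaf allows. Flower replicate 1 was thus high in some genes of flower and low in others.

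With FPKM as deposited, the balance of the calls differed between levels of expression. Genes were grouped by their mean over the 6 libraries. Among 3047 genes with a mean between 2 and 5 FPKM, 50.8% were higher in leaf and 13.7% higher in flower. Between 20 and 100 FPKM (5603 genes) the shares were 29.4% and 25.8%, and the median difference was 0.0324. Between 100 and 1000 FPKM (1441 genes) 32.5% were higher in leaf and 37.1% higher in flower, and the median was -0.282. Above 1000 FPKM there were 58 genes, 26 higher in leaf and 25 higher in flower. These groups include genes that passed the minimum through 1 organ alone, whose direction the minimum set. Among the 14139 genes at 1 FPKM in all 6 libraries, the leaf share of calls was 79.9% between 2 and 5 FPKM, 72.5% between 5 and 20 FPKM, 52.4% between 20 and 100 FPKM and 45.7% between 100 and 1000 FPKM. In these genes a low mean leaves little room for a large difference, and none of the 128 with a mean up to 2 FPKM was called.

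After median-ratio scaling the leaf share of calls was lower in each of these groups. Over all 19467 genes it went from 78.7% to 71.1% of calls between 2 and 5 FPKM, and from 72.8% to 59.3% between 5 and 20 FPKM. Between 20 and 100 FPKM it went from 53.3% to 39.2%, which turned the majority to flower, and between 100 and 1000 FPKM from 46.7% to 37.7%. With a pseudocount of 0.1 FPKM it was 78.5% between 2 and 5 FPKM and 46.7% between 100 and 1000 FPKM, and without flower replicate 1 it was 79.5% and 46.6%. Among the 14139 genes at 1 FPKM in all 6 libraries, the scaled shares were 45.2% between 2 and 5 FPKM, 52.1% between 5 and 20 FPKM, 36.6% between 20 and 100 FPKM and 35.6% between 100 and 1000 FPKM. The excess of leaf calls between 2 and 5 FPKM therefore did not hold when both the scaling and the genes counted were changed.

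**Figure D3:**
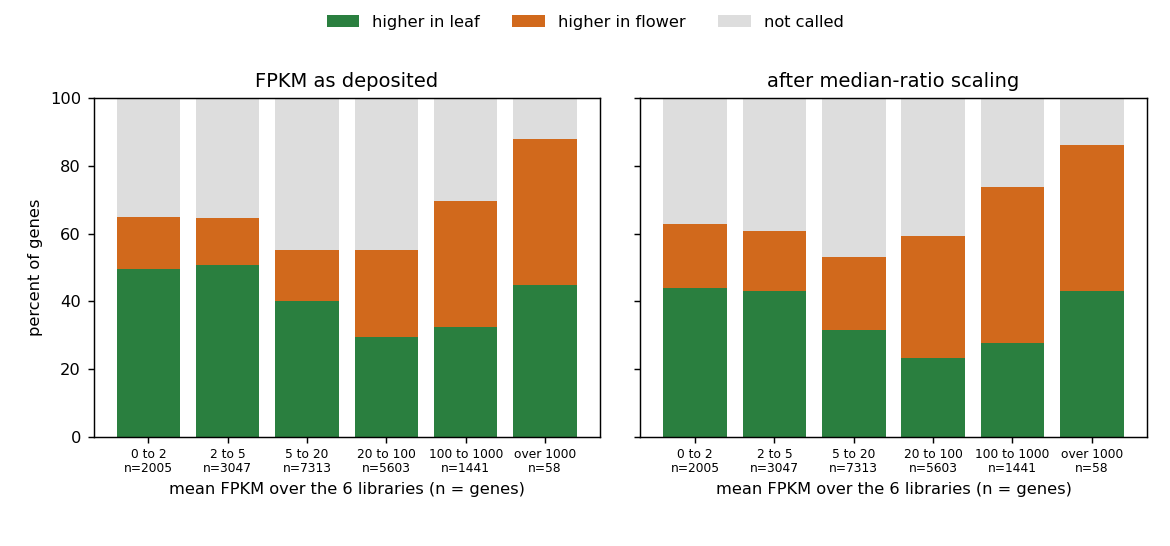
Bars give the percent of genes higher in leaf, higher in flower or not called, by mean FPKM over the 6 libraries, with FPKM as deposited (left) and after median-ratio scaling (right). The green part shrinks from 50.8% of genes between 2 and 5 FPKM to 29.4% between 20 and 100 FPKM on the left, and from 43.2% to 23.3% on the right, with genes that passed the minimum through 1 organ alone included.

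Length separated the classes little. The median recovered length was 1314.5 bases for genes higher in leaf, 1387 for genes higher in flower and 1423 for genes not called. The quartiles were 734.2 and 1993.8 bases for genes higher in leaf, 789 and 2009 for genes higher in flower, and 770 and 2213 for genes not called.

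Of the 8021 genes not called, 5833 had an adjusted p under 0.05 but a difference below 1, and 2188 did not pass the test. Not passing a test does not show that levels are alike. For 2269 genes (11.7%, against 12.7% of all genes tested), the 95% interval of the difference lay inside 0.5 either way, and for 6185 (31.8%) inside 1. These 2269 genes held 11.3% of FPKM in leaf and 11.4% in flower.

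The most abundant of the 2269 were rows 5282 (183 bases), 17054 (150 bases), 32693 (1384 bases) and 23364 (1309 bases). Row 32693 was at 1195.6, 1197.3 and 1206.3 FPKM in leaf and 1160.2, 1255 and 1231.3 in flower, with a 95% interval of -0.10 to 0.06. It was also at 1158.3 ± 7.68 FPKM in stem and 1405.2 ± 16.4 in root (SD, n = 3), so the 4 organ means lay between 1158.3 and 1405.2 FPKM. Row 23364 was at 1128.9 ± 5.51 FPKM in leaf and 1088.7 ± 52.6 in flower (95% interval -0.03 to 0.14), and at 549.8 ± 5.66 in root. Row 5282 was at 1890.3 ± 28.8 FPKM in leaf and 2099.9 ± 27.2 in flower. It passed the test (limma adjusted p = 0.00101) with an interval of -0.22 to -0.08, and was at 4397.2 ± 75.4 in stem. Row 17054 was at 1574.7 ± 37.6 FPKM in leaf and 1806.4 ± 448.8 in flower (2065.3 without flower replicate 1). Its interval of -0.48 to 0.15 was the widest of the 4, and stem was at 3942.8 ± 57.4 FPKM. A like level in leaf and flower therefore did not mean a like level in every organ. After median-ratio scaling all 4 were lower in leaf, by -0.636 for row 5282, -0.649 for row 17054, -0.503 for row 32693 and -0.431 for row 23364. Without flower replicate 1, row 17054 differed by -0.391 (limma adjusted p = 2.91e-06), row 23364 by 0.0901 (limma adjusted p = 0.00134) and row 32693 by -0.0512 (limma adjusted p = 0.0147). With all libraries these 3 did not pass the test (limma adjusted p = 0.293, 0.202 and 0.645), and without flower replicate 1 they stayed below the minimum for a call.

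Stem and root stood nearer to leaf than to flower for most called genes. Their levels did not enter the leaf minus flower differences, but their spread entered the standard errors and p-values. Every comparison of an organ with leaf or flower would share libraries with the calls, so levels are given with no test. These levels are for FPKM as deposited and not for median-ratio scaling. Of the 7618 genes higher in leaf, the stem mean was nearer to leaf on the log2 scale in 6291 (82.6%) and the root mean in 5391 (70.8%). Their median level was 15.1 FPKM in leaf, 13.7 in stem, 11.4 in root and 1.76 in flower. By these medians flower was the low organ, but the genes were chosen to be lower in flower than in leaf. Of the 3828 genes higher in flower, stem was nearer to leaf in 3010 (78.6%) and root in 2505 (65.4%), and their median level was 35.2 FPKM in flower. The medians of root (9.51), stem (7.97) and leaf (5.39) were lower, that of leaf by the choice of genes.

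The genes with the largest differences in favour of leaf were unlike the rest in root. Among the 401 genes higher in leaf by at least 5, the root mean was nearer to flower in 284 (70.8%), whereas stem stayed nearer to leaf in 316 (78.8%). Their medians were 134 FPKM in leaf, 41.3 in stem, 2.47 in root and 0.431 in flower. Among the 3727 genes higher in leaf by 1 to 2, root was nearer to leaf in 2880 (77.3%), and the root mean exceeded the leaf mean on the log2 scale in 2110 (56.6%). For the 304 genes higher in flower by at least 5, both stem (288 genes) and root (264 genes) were nearer to leaf, and no stem mean exceeded the flower mean. Root replicate 3 held the highest of the 3 root values in 198 of the 401 leaf genes (49.4%) and in 156 of the 304 flower genes (51.3%), and its part in the root means was not tested. The same share over all genes is not given here, so nothing particular to these genes is read from it.

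**Figure D4:**
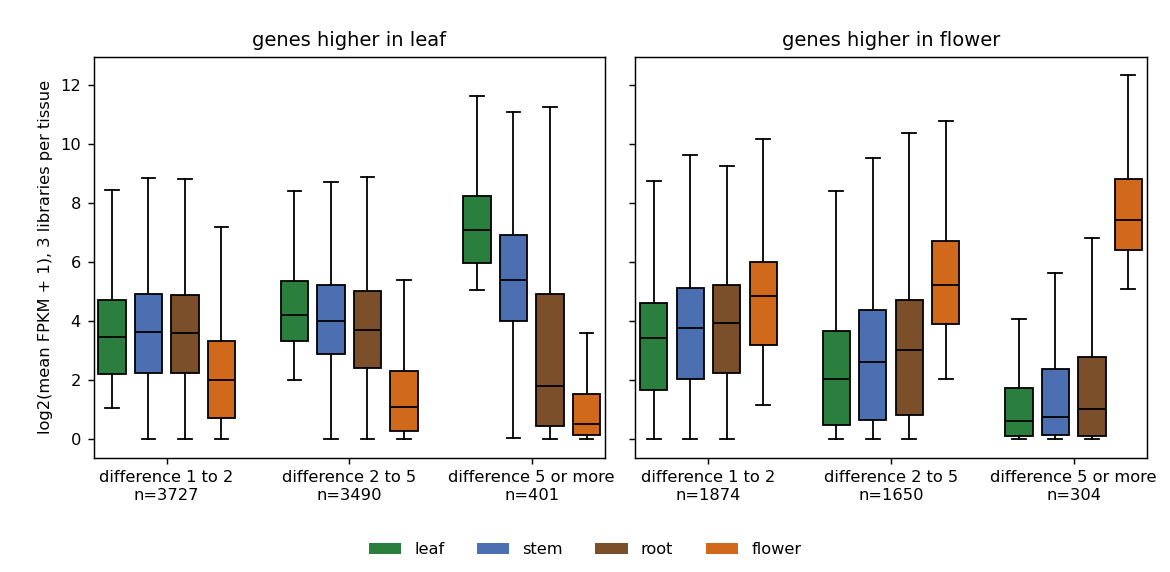
Boxes show log2(mean FPKM + 1) in leaf, stem, root and flower for genes higher in leaf (left) and higher in flower (right), grouped by the size of the difference, with the median, the quartiles and whiskers to the farthest gene within 1.5 box lengths. Root is close to leaf for small differences in favour of leaf and close to flower for differences of 5 or more.

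Many genes higher in leaf, and fewer of those higher in flower, were more abundant still in stem or root. By log2 means, stem was above leaf in 3369 (44.2%) of the 7618 genes higher in leaf, and root in 3688 (48.4%). Of the 3828 genes higher in flower, stem was above flower in 207 (5.41%) and root in 465 (12.1%). The genes named here were chosen for their level in root or stem. For row 2393 (708 bases) the leaf libraries were at 625.4, 622.6 and 619.3 FPKM and the flower libraries at 192.6, 197.9 and 196.9, a difference of 1.66 (SE 0.0298, limma adjusted p = 2.36e-13). It was at 3357.5 ± 26.3 FPKM in stem and 3230.2 ± 29 in root (SD, n = 3). Row 5500 (1125 bases) was like it, at 560.6 ± 7.23 FPKM in leaf, 104.4 ± 3.9 in flower, 2840.7 ± 39.9 in stem and 2778.6 ± 53.9 in root. Row 3108 (441 bases) was highest in root, at 3903 ± 28.2 FPKM, against 483.2 ± 11.5 in leaf and 89.76 ± 31.3 in flower, where replicate 1 was the highest library.

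On the flower side, row 16963 (1441 bases) had flower values of 3996.2, 3748.8 and 3718.3 FPKM and means of 1271.9 ± 11.8 in leaf, 1816.5 ± 10.4 in root and 1689.1 ± 35.4 in stem (SD, n = 3). All 4 organs thus expressed it at a high level. Row 25924 (378 bases) was at 1757.2, 2510.7 and 2461 FPKM in flower, 1699 ± 17.4 in root and 1505.4 ± 40 in stem, but at 157.7 ± 15.8 in leaf, which was the low organ. Flower held 218.8 ± 37.2 FPKM of row 18674 (1007 bases) and leaf 84.1 ± 1.66, far below its 2116.4 ± 25.3 in stem. For row 25400 (835 bases) flower was at 3038 ± 328.6 FPKM and leaf at 1459.6 ± 21.5, and its difference of -1.05 (SE 0.0643, limma adjusted p = 1.25e-08) was close to the minimum. It was -0.996 without flower replicate 2, and no longer called. By their means, rows 16963, 25924 and 25400 were highest in flower, and row 18674 was highest in stem.

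Genes that stood next to each other in the table often differed in the same direction. The sources used here do not say what the order of the rows stands for. In 4693 pairs of adjacent rows that were both called, 2946 (62.8%) had the same direction, against 55.2% of 4202 pairs that stood 10 rows apart and 55.6% of 4110 pairs that stood 50 rows apart. Among adjacent pairs in which both differences were at least 5, 46 of 50 had the same direction, and at 50 rows apart 5 of 10 did. The pairs share rows and are no replicates, so no test is given. Runs of 5 or more adjacent rows called in one direction numbered 56 for leaf, the longest of 8 rows, and 8 for flower, the longest of 7. Calls for leaf were more numerous (7618 against 3828), and in any row order the more numerous class tends to form more runs. Runs in a shuffled order were not counted, so these numbers do not compare the grouping of leaf and flower genes.

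Groups of at least 4 genes that each differed by 5 or more, with no gap over 3 rows, were found 4 times, by a rule chosen after the values were seen. In rows 14513 to 14518 all 6 genes were higher in leaf, by 5.06 to 9.42. Row 14518 (945 bases) had the highest leaf values, 2233.8, 2268 and 2280.1 FPKM, and flower values of 4.242, 1.441 and 1.84. For row 14514 (795 bases) the leaf values were 708.9, 701.6 and 715.8 FPKM and the flower values 1.777, 0.3427 and 0. The stem means of these 6 genes ran from 19.39 to 633.8 FPKM, between those of leaf and flower, and their root means were at 2.209 FPKM or below. Rows 5267 to 5271, which hold 4 of the 8 leading genes of flower, were all higher in flower, and the fifth, row 5271 (393 bases), had 48.75, 73.92 and 64.6 FPKM in flower and 0.1624 ± 0.214 in leaf.

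The other two groups held both directions. In rows 9660 to 9665, row 9660 (534 bases) had 127.8, 148.5 and 143.5 FPKM in flower and 0.05956 ± 0.0596 in leaf. Rows 9663, 9664 and 9665, which share a recovered length of 546 bases, were higher in leaf. They stood at 3398.2 ± 132.3, 440.5 ± 11.4 and 2297 ± 20.3 FPKM in leaf (SD, n = 3) and at 18.36 ± 0.929, 0.4009 ± 0.368 and 0.9931 ± 0.939 in flower. Genes of equal length in adjacent rows may be copies that share reads, so the level of each of these 3 is uncertain. In rows 28462 to 28467, row 28465 (1989 bases) had 333.2, 479.8 and 472.6 FPKM in flower and 0.06404 ± 0.0479 in leaf, next to row 28466 described above. Row 28467 (1437 bases), the next row, went the other way, at 57.35 ± 1.89 FPKM in leaf and 0.1247 ± 0.0999 in flower.

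**Figure D5:**
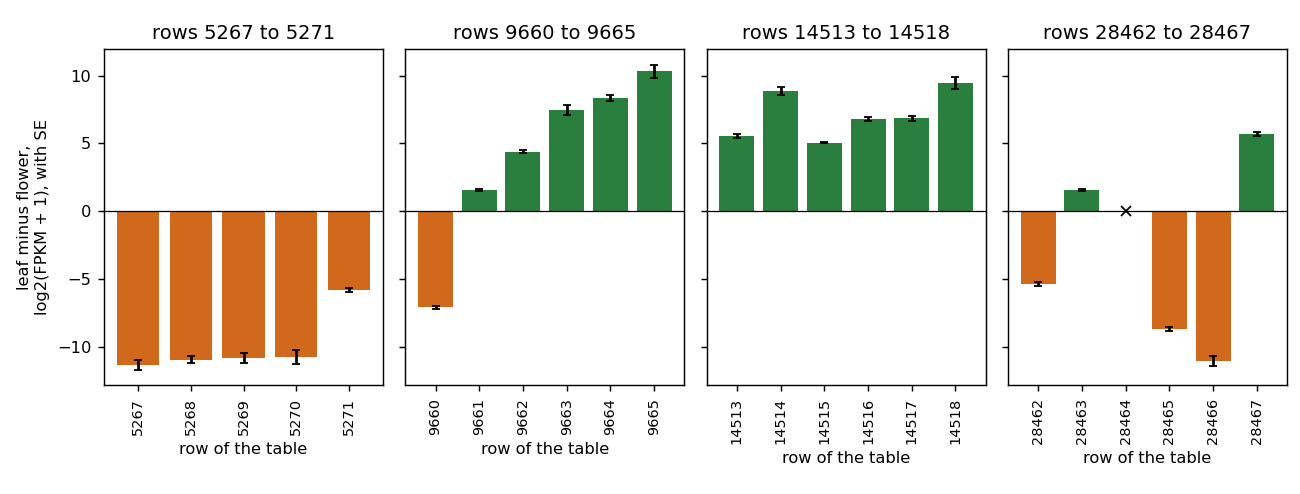
Bars give leaf minus flower on the log2(FPKM + 1) scale, with the standard error, for the 4 groups of neighbouring rows that hold at least 4 differences of 5 or more, and a cross marks a row that was too low to be tested. Rows 5267 to 5271 all point to flower and rows 14513 to 14518 all to leaf, and the other two groups hold both directions.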

How the data were processed

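The authors deposited FPKM, with a column for each of the 12 libraries used. Per the submitters' processing notes the tools were fastp, HISAT2, HTSeq and R 3.2.0, listed with no role or order. Per the labels' protocols RNA was extracted with TRIzol. The sources used here do not give the genome build, the annotation or the strand setting. Seed samples were not analysed here.

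Library totals, gene lengths and reads were recovered from FPKM as whole numbers, within 0.01 reads, for 100% of the 26625 rows above 0. Totals of the 12 libraries ran from 26183138 to 31500664, and the recovered reads summed to 99.992% to 100.002% of them. Lengths of rows with few reads may be too short.

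Differences come from limma 3.58.1 (R 4.3.3) on log2(FPKM + 1), with 1 mean per organ, a mean-variance trend and 8 residual degrees of freedom over 12 libraries. The fit covered the 20769 genes that reached 1 FPKM in 3 of the 12 libraries, and Benjamini-Hochberg adjustment ran over all of them. This scale understates changes of low genes. The fit was tested on simulated data in which few genes changed, equally in both directions. These data differ from that setting, so the simulation does not bear on the choice of scaling. The alternatives were other pseudocounts, filters, scalings, tests and sets of libraries, and limma's voom on the recovered reads. Counts limit precision mainly for genes near the minimum, and limits from counts of 0 cover counting error only.

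Named genes are, among calls with separate libraries, the 8 largest differences each way, the 3 most abundant each way with 0 in the lower organ, and the 2 each way highest in root and in stem. Added to these are the 4 highest in leaf and in flower, and the 4 most abundant with a 95% interval inside 0.5. Groups of neighbouring rows, rows at the edge of the minimum, level groups and the 100 highest genes were chosen outside this rule, after values were seen. The genes, lists and tests were chosen with earlier results of these data known.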

Additional observations from a re-analysis of the deposited data

How the results depend on the processing

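Over the alternatives to the fit, the count of called genes ran from 9603 (limma's test against a difference of 1) to 12327 (voom on recovered reads), and no gene was called in the opposite direction under any of them. The share of calls higher in leaf was 54.5% after median-ratio scaling and 66.2% to 67.2% otherwise. By level, that scaling turned the share to 39.2% between 20 and 100 FPKM and to 50% above 1000 FPKM. Counted over genes at 1 FPKM in all 6 libraries, it was 47.6% above 1000 FPKM as deposited, and with that scaling 45.2% between 2 and 5 FPKM, 36.6% between 20 and 100 FPKM and 46.3% above 1000 FPKM. These level groups and settings were chosen after seeing the data. The median difference was 0.104 after that scaling, 0.595 and 0.561 with pseudocounts of 0.1 and 0.5 FPKM and 0.604 with voom. With a minimum difference of 2, 3891 genes were higher in leaf and 1954 higher in flower. With a limit of 1 in place of 0.5, 6185 genes had no large difference. Leaving out 1 library at a time gave 11395 to 11511 called genes, 7540 to 7737 higher in leaf, 3774 to 3855 higher in flower, 66.2% to 67.2% of calls higher in leaf, a median difference of 0.507 to 0.541 and 2016 to 2285 genes without a large difference. The median log2(FPKM + 1) level of genes higher in flower was 3.15 in stem without each stem replicate, and 3.38 to 3.39 in root without each root replicate. Same-numbered leaf and flower libraries did not deviate together (correlations -0.001, -6.1e-05 and 0.0131). This cannot decide whether equal numbers mark the same plants, since the spread between libraries may be technical. With a replicate block, 11444 genes were called. Of the called genes named by rule, row 25400 was the only one that lost its call, against a difference of 1 (adjusted p = 0.425) and without flower replicate 2. At 3 libraries per organ the precision of low genes is limited. Median-ratio scaling takes the median gene as unchanged by construction. The cause of the other shifts was not tested.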
